A study of Mus musculus with 9 samples.

Results

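Solute carriers are membrane proteins that move amino acids, sugars, metals, nucleosides and other small molecules across the plasma membrane and the membranes of mitochondria, lysosomes, the Golgi apparatus and the endoplasmic reticulum. They are named SLC, with a family number and a member number, and most move their substrate down its own gradient or couple it to a gradient of sodium, protons or a second solute. In microglia, the resident macrophages of the brain, carriers are known to bring in glucose and cystine, to export lactate and glutamate, and to withhold or recycle metals in phagosomes. Genes were taken as members when their symbol began with Slc and a digit and their mean level over all 9 libraries was at least 1 FPKM (fragments per unit of transcript length and of library size). The table held 136 such symbols among 6462 genes, and 114 of them met the level, of 5643 genes that did. The other 22 stayed below it. Members were placed by known substrate into 19 amino acid carriers, 11 carriers of glucose and other sugars, 17 metal carriers, 3 nucleoside and nucleobase carriers and 20 mitochondrial carriers, with 44 left in other classes. Of those, 14 were placed with inorganic ions and protons and 12 with nucleotide sugars and the Golgi apparatus. The symbol rule also took in Slc9a3r1, a scaffold protein that binds carriers, and Slc7a6os, the gene opposite Slc7a6, neither of which is itself a carrier.

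Transcripts were sequenced in BV2 cells, a line of mouse microglia immortalized with a retrovirus that carries oncogenes, which makes it a growing, transformed model kept without other brain cells. The groups were cells given lipopolysaccharide (LPS, the Toll-like receptor 4 ligand of Gram-negative bacteria) at 200 ng/ml for 12 h, the same for 1 h, and untreated cells labelled 0 h, with 3 libraries each. All groups shared the cell line, and no labels tie a library to a separate culture, so the tests measure the spread between libraries, which may be technical. Of 16 microglia and macrophage markers, 11 were listed and 9 reached the level filter, among them Tyrobp, Cd68 and Csf1r, while none of 8 astrocyte and none of 8 neuron markers was listed and 1 of 8 oligodendrocyte markers, Olig2, was listed below the filter. Listed FPKM summed to 223720 to 228207 in the 12 h libraries, 203515 to 205413 in the 1 h libraries and 195872 to 198075 in the untreated libraries, and the part of these sums in the differences below was not tested. Relative depths, estimated from the steps between low values on 10 to 38 genes a library, were 1 to 1.17 times that of untreated library 1. The table lists only genes that its makers had selected for a difference among these same 9 libraries, so a large share of any group of genes passes.

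Differences are given on the log2(FPKM + 1) scale with their SE, from a limma fit over all 9 libraries, and a member rose or fell where its Benjamini-Hochberg adjusted p over the 5643 tested genes was under 0.05. At 12 h against untreated cells 58 members rose, which is 50.9% of the members where 41.1% of all tested genes rose, and 39 fell, which is 34.2% where 40.6% of all tested genes fell. The median member differed by 0.10 at 12 h and the median tested gene by 0.03. At 1 h against untreated cells 26 members rose, which is 22.8% where 24.1% of all tested genes rose, and 49 fell, which is 43.0% where 34.9% of all tested genes fell. The median member then differed by −0.08 and the median gene by −0.03. From 12 h against 1 h, 63 members were higher, 55.3% where 41.9% of all tested genes were higher, and 37 were lower, 32.5% where 43.6% were lower. Over the 3 groups 108 members passed the F test, 94.7%, which is the share of all tested genes to within a point (94.3%). Calls that held whichever single library was left out numbered 20 of the 26 rises and 36 of the 49 falls at 1 h, and 52 of the 58 rises and 38 of the 39 falls at 12 h. In the same order these are 76.9%, 73.5%, 89.7% and 97.4%, close to the 78.0%, 77.2%, 86.8% and 96.3% over all tested genes. Between 12 h and 1 h, 52 of the 63 higher calls held (82.5%), where 90.9% did over all tested genes. All 37 lower calls held (100%), where 94.9% did over all tested genes.

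Large differences were few. At least 1 on the log2 scale was reached by 2 rising members at 1 h, Slc20a1 and Slc25a25, which is 1.75% of the members where 2.16% of all tested genes rose that far. No member fell that far at 1 h, where 0.585% of tested genes did. At 12 h 6 members rose that far, which is 5.26% where 4.54% of tested genes did, and they were Slc7a11, Slc15a3, Slc11a2, Slc31a2, Slc2a6 and Slc3a2. Another 8 fell that far at 12 h, which is 7.02% where 2.75% of tested genes did, and they were Slc26a11, Slc17a5, Slc36a2, Slc2a3, Slc2a8, Slc9a7, Slc13a3 and Slc43a2. At 12 h 40.9% of all tested genes had every 12 h library below every untreated one, as had all 155 genes that fell that far, these 8 among them. Of these 8, Slc36a2, Slc13a3 and Slc9a7 stood just inside the level filter and met it only through their untreated and 1 h libraries. Slc39a4 and Slc22a4, which were highest at 12 h, were left out by it. The shares of large rises and falls thus depend on the filter.

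**Figure D1:**
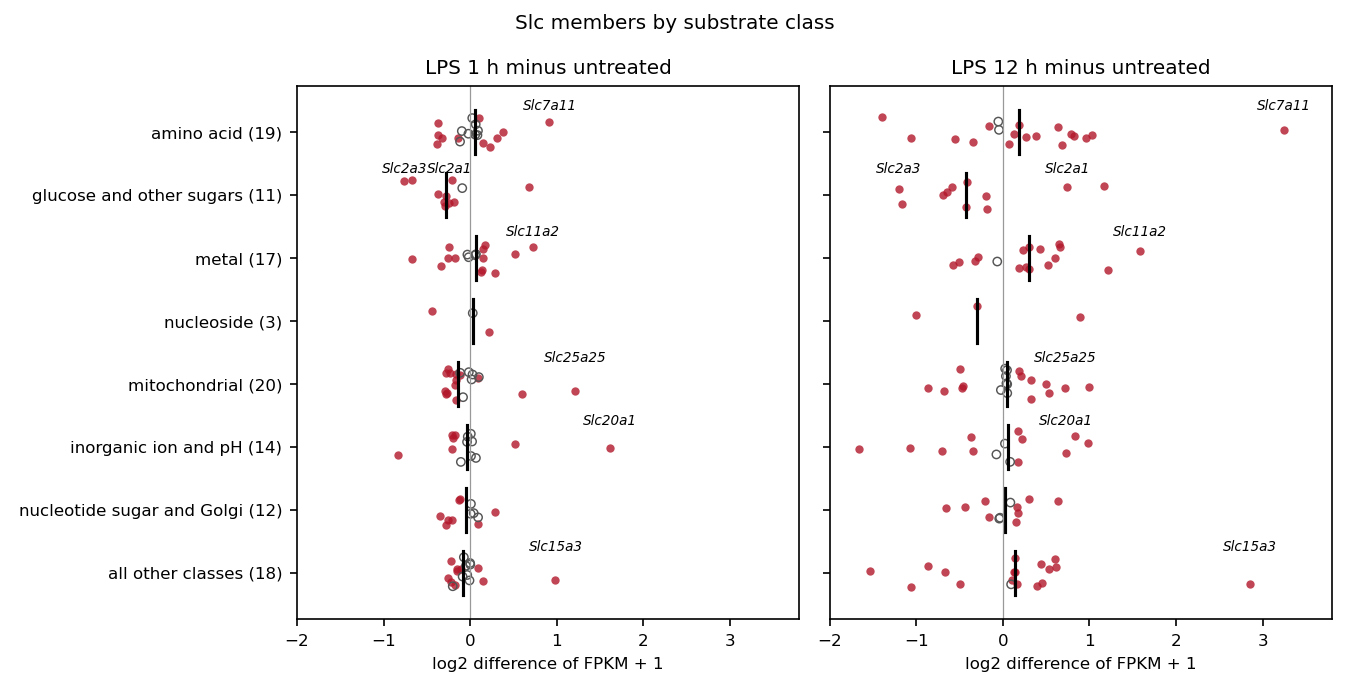
Log2 differences (FPKM + 1) of the 114 members in LPS 1 h (left) and LPS 12 h (right) against untreated cells, 1 point a member, with substrate classes down the page and their member number in brackets. Filled red points passed at an adjusted p under 0.05, open points did not, and the black bar is the class median, which at 12 h is 0.30 for metal carriers and −0.43 for carriers of glucose and other sugars.

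The 3 cases that bear most directly on cystine and glucose uptake were Slc7a11, Slc2a1 and Slc2a3, and they took 3 different courses. Slc7a11, the light chain of the exchanger that takes up cystine for glutamate, had 6.53, 6.81 and 6.77 FPKM in the untreated libraries, 13.1, 13.1 and 14.4 FPKM at 1 h and 72.5, 66.4 and 77.2 FPKM at 12 h. Every 1 h library lay above every untreated one, and every 12 h library lay above all others. Its difference was 0.91 ± 0.05 at 1 h (adjusted p = 2.14e-09), 3.24 ± 0.05 at 12 h (adjusted p = 1.14e-15) and 2.33 ± 0.05 between 12 h and 1 h (adjusted p = 4.91e-14), and its mean FPKM at 12 h was 10.7 times that of untreated cells. No other member rose as far.

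Slc2a1, which encodes the widely expressed glucose carrier GLUT1, had 68.5, 64 and 70.5 FPKM in the untreated libraries, 55, 57.1 and 58.8 FPKM at 1 h and 115, 106 and 122 FPKM at 12 h. It was lowest in the 1 h libraries and highest in the 12 h libraries, and no library of 1 group overlapped another. At 1 h it fell by 0.24 ± 0.05 (adjusted p = 5.69e-04), and at 12 h it rose by 0.75 ± 0.05 (adjusted p = 2.25e-09). Slc2a3, which encodes the high-affinity glucose carrier GLUT3, had 8.43, 7.76 and 8.66 FPKM in the untreated libraries, 4.15, 4.2 and 5.13 FPKM at 1 h and 3.17, 2.6 and 3.35 FPKM at 12 h. The differences were −0.76 ± 0.08 after 1 h (adjusted p = 1.69e-06) and −1.20 ± 0.08 after 12 h (adjusted p = 3.20e-09), again with no overlap between groups. The ratio of Slc2a1 to Slc2a3 FPKM was 8.17 ± 0.0708 in untreated cells, 12.8 ± 1.15 at 1 h and 37.8 ± 2.64 at 12 h (SD, n = 3 each).

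**Figure D2:**
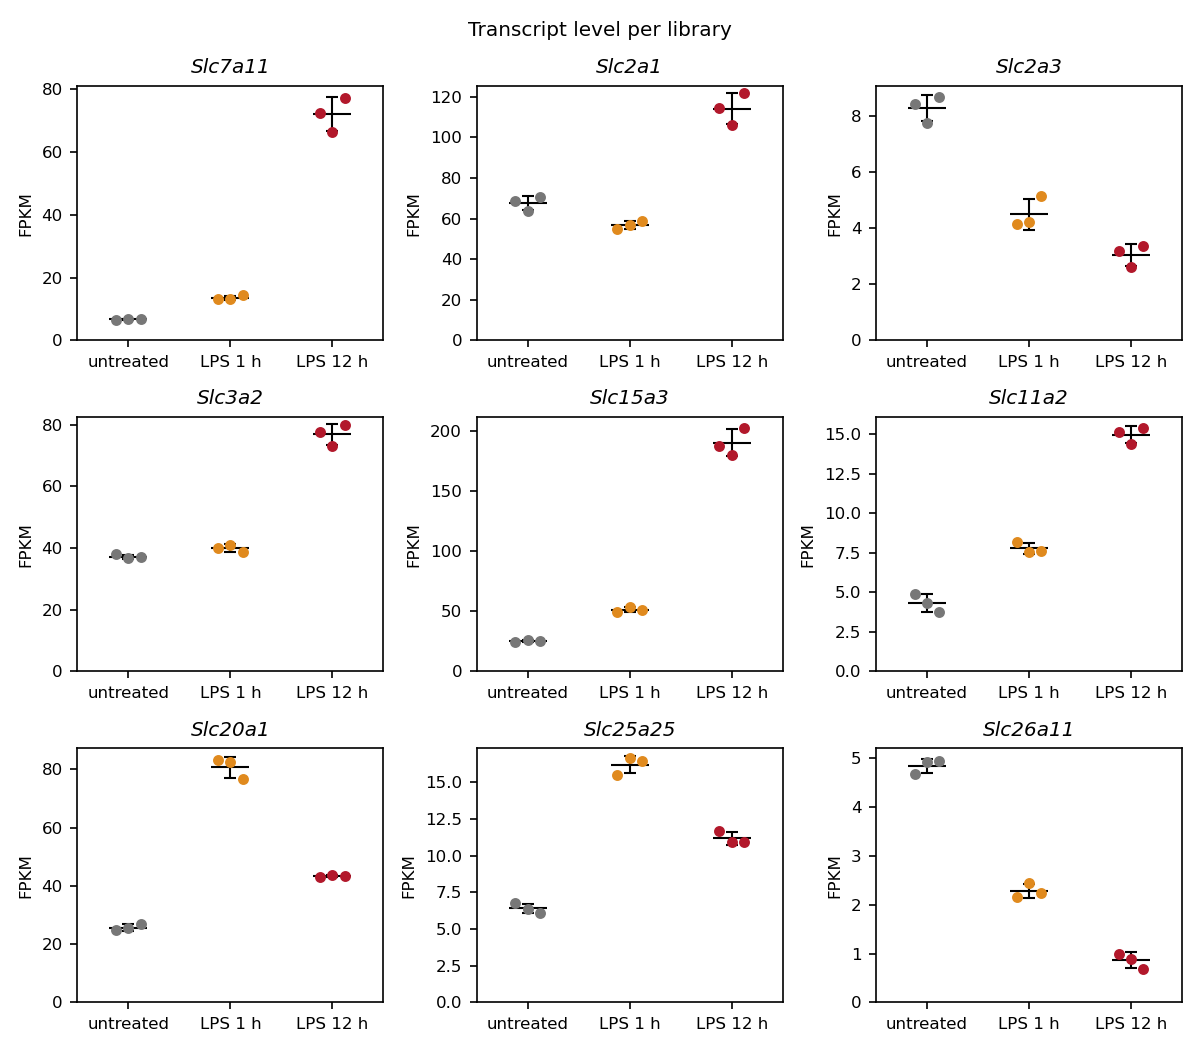
FPKM of 9 members in each library (points), with the mean and SD of the 3 libraries of each group (bars), from untreated to LPS 1 h and LPS 12 h. Slc7a11 reaches 66.4 to 77.2 FPKM in the 12 h libraries, Slc20a1 is highest in the 1 h libraries (76.6 to 83.2 FPKM), and Slc2a3 and Slc26a11 decline at each time.

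Promoter windows are shown for Slc7a11, for Slc3a2, whose product pairs with that of Slc7a11, for Slc2a1, and for Slc25a33 from the mitochondrial class, so that the letters beside the start sites can be read. The sequences are the 250 bases before the annotated start from RefSeq on mouse build GRCm38.p6, written 5′ to 3′ on the strand of the gene. Capitals mark matches, on either strand, to the amino acid response (CARE) letters TGATGNAAN or to the antioxidant response (ARE) letters TGACNNNGC. Slc7a11 is at chr3:50443614-50443863 on the minus strand, Slc3a2 at chr19:8713898-8714147 on the minus strand, Slc2a1 at chr4:119108495-119108744 on the plus strand, and Slc25a33 at chr4:149774268-149774517 on the minus strand.
Slc7a11: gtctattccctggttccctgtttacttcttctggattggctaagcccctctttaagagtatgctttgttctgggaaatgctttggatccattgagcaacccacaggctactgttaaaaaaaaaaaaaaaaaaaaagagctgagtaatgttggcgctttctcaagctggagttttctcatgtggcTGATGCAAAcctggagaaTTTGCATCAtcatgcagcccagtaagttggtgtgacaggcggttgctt
Slc3a2: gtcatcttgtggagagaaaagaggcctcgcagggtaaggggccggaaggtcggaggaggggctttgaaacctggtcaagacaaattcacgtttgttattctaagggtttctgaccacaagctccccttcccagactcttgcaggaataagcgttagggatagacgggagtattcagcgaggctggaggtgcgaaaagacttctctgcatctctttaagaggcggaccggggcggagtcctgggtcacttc
Slc2a1: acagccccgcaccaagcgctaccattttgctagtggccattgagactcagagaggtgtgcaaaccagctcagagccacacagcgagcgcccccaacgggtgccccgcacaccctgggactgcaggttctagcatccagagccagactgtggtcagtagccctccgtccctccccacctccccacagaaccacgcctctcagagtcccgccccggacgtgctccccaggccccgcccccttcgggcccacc
Slc25a33: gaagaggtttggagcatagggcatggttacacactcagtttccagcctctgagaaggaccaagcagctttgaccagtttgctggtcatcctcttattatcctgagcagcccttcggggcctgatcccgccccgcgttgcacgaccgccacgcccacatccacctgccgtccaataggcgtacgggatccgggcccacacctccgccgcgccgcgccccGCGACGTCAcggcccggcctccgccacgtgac

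The Slc7a11 window holds the CARE letters 2 times, once on each strand, beginning 66 and 48 bases before the start. Among the 88 members with a window in the table, 2 held these letters, Slc7a11 and the sugar carrier Slc50a1, which is 2.27%, and 3.89% of 27025 genes with a window did. Slc3a2 and Slc2a1 held neither motif. The Slc25a33 window holds the ARE letters on the minus strand, 32 bases before the start, and 24 of the 88 members held that motif (27.3%), as did 11.5% of all genes with a window. Among members that rose at 12 h it was in 13 of 45, and among those that fell in 6 of 31. The E-box letters CACGTG, a palindrome, were in 16 of the 88 members (18.2%) and in 6.86% of all genes with a window. In the windows shown, CACGTG stands only in that of Slc25a33, 8 bases before the start and left in lower case, and it does not overlap the ARE match. A match describes letters only. The 27025 genes include many that are not among the 5643 tested, so these shares do not compare carriers with other tested genes. The other 26 members, among them Slc2a3 and Slc15a3, had no window.

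Of 19 amino acid carriers 12 rose at 12 h over untreated cells (63.2%, where 41.1% of all tested genes rose) and 5 fell (26.3%, where 40.6% fell), with a median of 0.19. At 1 h 6 rose and 5 fell with a median of 0.06, shares of 31.6% and 26.3% where 24.1% and 34.9% of all tested genes did. Slc3a2, the heavy chain CD98 that carries both the xCT and LAT1 light chains to the membrane, had 38, 36.7 and 37 FPKM in the untreated libraries, 40.1, 41.2 and 38.6 FPKM at 1 h and 77.7, 73.2 and 79.9 FPKM at 12 h. The 12 h libraries stood apart from all others, at 1.03 ± 0.04 (adjusted p = 4.57e-12). Its 1 h difference, 0.10 ± 0.04 (adjusted p = 0.0327), was called with all libraries. Leaving out untreated library 2 or 3 gave 0.09 each time and ended that call (adjusted p = 0.093 and 0.0791), as did leaving out 1 h library 1 or 2, which gave 0.10 and 0.08 (adjusted p = 0.0769 and 0.131). The ratio of Slc7a11 to Slc3a2 FPKM was 0.180 ± 0.00726 in untreated cells, 0.339 ± 0.0295 at 1 h and 0.935 ± 0.0298 at 12 h (SD, n = 3 each). For Slc7a5, which encodes the large neutral amino acid carrier LAT1 on the same heavy chain, the ratio to Slc3a2 was 1.58 ± 0.0606, 1.63 ± 0.0262 and 1.37 ± 0.0722 in the same order. Slc7a5 itself had 57.8, 60.3 and 58.4 FPKM in the untreated libraries, 64.9, 68.2 and 62.1 FPKM at 1 h and 105, 106 and 104 FPKM at 12 h. The 12 h libraries lay above all others, and it rose by 0.82 ± 0.03 at 12 h (adjusted p = 2.18e-11).

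Other amino acid carriers that rose at 12 h include those of small neutral and cationic amino acids. Slc6a9, the glycine carrier GlyT1, had 3.75, 4.26 and 4.22 FPKM in the untreated libraries, 3.7, 4.06 and 4.25 FPKM at 1 h and 9.32, 8.85 and 8.38 FPKM at 12 h. Its 12 h libraries lay far above the rest (0.96 ± 0.06, adjusted p = 1.62e-09), and 38.8% of its exon bases overlap Ccdc24 on the other strand. Slc38a7, a glutamine carrier of lysosomes, had 13 ± 0.575 FPKM in untreated cells, 13.7 ± 0.131 at 1 h and 23.3 ± 1.7 at 12 h (SD, n = 3 each), a difference of 0.79 ± 0.05 at 12 h. Slc7a1, the cationic amino acid carrier that brings in arginine, had 31.8, 32.1 and 30.6 FPKM in the untreated libraries, 39.6, 39.6 and 38.3 FPKM at 1 h and 49.3, 50.9 and 49 FPKM at 12 h. It rose in steps without overlap, and its differences were 0.30 ± 0.03 at 1 h and 0.64 ± 0.03 at 12 h (adjusted p = 1.99e-06 and 1.66e-10). Slc1a4, the carrier ASCT1 of alanine, serine and cysteine, had 7.4, 7.61 and 8.15 FPKM in the untreated libraries, 6.01, 6.07 and 5.75 FPKM at 1 h and 13.2, 12.9 and 12.9 FPKM at 12 h. It was lowest at 1 h and highest at 12 h with no overlap. It fell by 0.33 ± 0.04 at 1 h and rose by 0.69 ± 0.04 at 12 h (adjusted p = 2.33e-05 and 2.77e-09).

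Slc38a2, the sodium-coupled neutral amino acid carrier SNAT2 and the most abundant member of the class, took the opposite course. Its levels were 114, 113 and 111 FPKM in the untreated libraries, 148, 147 and 147 FPKM at 1 h and 103, 101 and 99.4 FPKM at 12 h. The 1 h libraries were the highest and the 12 h libraries the lowest, at 0.38 ± 0.03 at 1 h and −0.16 ± 0.03 at 12 h (adjusted p = 1.37e-08 and 4.73e-05), or −0.35 at 12 h after quantile normalization. Its relative Slc38a1, of the same transport type, moved by 0.13 ± 0.03 at 12 h (adjusted p = 0.00178, but 0.516 after quantile normalization). Slc1a5, the glutamine carrier ASCT2, was nearly level, with 76.9 ± 1.72 FPKM in untreated cells, 78.2 ± 0.643 at 1 h and 80.8 ± 0.886 at 12 h (SD, n = 3 each). Its 12 h difference of 0.07 ± 0.03 (adjusted p = 0.0262) became −0.0804 after quantile normalization. Leaving out untreated library 1 gave 0.05 and leaving out 12 h library 2 gave 0.06, neither of which passed (adjusted p = 0.104 and 0.0777). Amino acid carriers that fell were led by Slc36a2, a proton-coupled carrier of small amino acids, with 2.08, 2.08 and 1.96 FPKM in the untreated libraries, 1.85, 1.97 and 1.6 FPKM at 1 h and 0.0895, 0.243 and 0.141 FPKM at 12 h. Its 12 h libraries were close to 0, and the difference of −1.39 ± 0.07 (adjusted p = 1.74e-10) became −3.09 with a pseudocount of 0.1. Slc43a2, the facilitative large neutral amino acid carrier LAT4, had 8.08, 7.42 and 7.44 FPKM in the untreated libraries, 5.54, 5.7 and 5.72 FPKM at 1 h and 3.11, 3.39 and 2.97 FPKM at 12 h. It was lower at each time (−0.38 ± 0.05 and −1.06 ± 0.05, adjusted p = 2.68e-05 and 1.30e-10). Slc6a17, a vesicular neutral amino acid carrier, differed by −0.55 ± 0.04 at 12 h and the lysosomal Slc36a1 by −0.35 ± 0.05.

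Genes around these carriers were counted from lists chosen for cystine use and for the response to amino acid shortage. These lists, like the others below, were chosen with earlier results of these data known. Their shares are therefore descriptive and not an independent test. Of 15 genes of cystine and glutathione use 8 were tested, of which 3 rose and none fell at 1 h, where 24.1% of all tested genes rose and 34.9% fell. At 12 h 7 of the 8 rose (87.5%, where 41.1% of all tested genes rose), 1 fell, and the median was 0.89. Gsr, glutathione reductase, differed by 1.00, Srxn1, sulfiredoxin, by 1.17, Txnrd1, thioredoxin reductase, by 0.75 and Gclm, the modifier subunit of glutamate-cysteine ligase, by 0.78. The member that fell was Gclc, the catalytic subunit of that ligase, by 0.62. Of 18 amino acid response genes 16 were tested, and 6 rose and 4 fell at 1 h (37.5% and 25%, where 24.1% and 34.9% of all tested genes did). At 12 h 15 rose (93.8%, where 41.1% of all tested genes rose) and Ddit4 fell, with a median of 0.90. Atf4, the transcription factor of that response, had 198 ± 2.76 FPKM in untreated cells, 256 ± 9.33 at 1 h and 477 ± 4.26 at 12 h (SD, n = 3 each), and Asns, asparagine synthetase, had 46.6 ± 2.11 FPKM in untreated cells, 53.8 ± 2.15 at 1 h and 108 ± 2.38 at 12 h (SD, n = 3 each). Both lists hold Chac1, which splits glutathione and differed by 2.07 at 12 h from a level of 0.712 ± 0.093 FPKM in untreated cells.

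Of 11 carriers of glucose and other sugars 9 fell at 1 h and 1 rose (median −0.28), and at 12 h 9 fell and 2 rose (median −0.43), and those 2 were Slc2a1 and Slc2a6. The falls are 81.8% of the class at each time, where 34.9% of all tested genes fell at 1 h and 40.6% at 12 h. Slc2a6, a sugar carrier of lysosomes known in macrophages as GLUT6, had 27.3, 26.2 and 27 FPKM in the untreated libraries, 43.8, 44.5 and 42.7 FPKM at 1 h and 62.4, 60.3 and 61.5 FPKM at 12 h. It rose without overlap at each time, by 0.68 ± 0.03 at 1 h and 1.16 ± 0.03 at 12 h (adjusted p = 1.76e-10 and 1.93e-13). Slc2a8, the intracellular GLUT8, had 3.79, 3.9 and 3.42 FPKM in the untreated libraries, 2.52, 2.63 and 3.45 FPKM at 1 h and 1.4, 1.27 and 0.709 FPKM at 12 h. The third 12 h library was lower than the other two and the third 1 h library higher than its group, within the untreated range. Its 12 h difference was −1.16 ± 0.11 (adjusted p = 2.49e-07). The 1 h difference of Slc2a8, −0.29 ± 0.11 (adjusted p = 0.0402), missed the threshold in 4 of the fits without 1 library, those without untreated library 1 or 2 and those without 1 h library 1 or 2 (−0.27, −0.26, −0.22 and −0.25; adjusted p = 0.0899 to 0.15).

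The 3 sugar phosphate carriers of the Slc37 family all fell at both times. Slc37a4, which brings glucose 6-phosphate into the endoplasmic reticulum, had 10.5, 9.37 and 10.4 FPKM in the untreated libraries, 5.45, 6.03 and 6.36 FPKM at 1 h and 7.66, 7.5 and 6.84 FPKM at 12 h. It was lowest at 1 h, with differences of −0.68 ± 0.06 and −0.41 ± 0.06 (adjusted p = 3.54e-07 and 1.62e-05) and a rise of 0.26 ± 0.06 between 12 h and 1 h. Slc37a2, known from macrophages, had 21.1 ± 1.04 FPKM in untreated cells, 17.2 ± 0.77 at 1 h and 13.1 ± 0.724 at 12 h (SD, n = 3 each) and differed by −0.64 ± 0.05 at 12 h. Slc37a3 differed by −0.19 ± 0.06 at 12 h (adjusted p = 0.00581, 0.203 after quantile normalization). Slc5a3, the sodium-coupled inositol carrier, had 5.27, 6.26 and 5.63 FPKM in the untreated libraries, 5.42, 5.2 and 5.26 FPKM at 1 h and 3.37, 3.18 and 2.92 FPKM at 12 h. It did not pass at 1 h (−0.09 ± 0.06, 95% interval −0.22 to 0.04) and fell at 12 h (−0.69 ± 0.06, adjusted p = 7.28e-08). Slc50a1, a sugar carrier of the SWEET family, differed by −0.58 ± 0.05 at 12 h.

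Summed over the 11 sugar carriers the level was 183 ± 6.504 FPKM in untreated cells, 169 ± 3.44 at 1 h and 231 ± 7.402 at 12 h, and Slc2a1 held much of it. Among 11 tested genes of the first steps after glucose uptake (14 in the list), none rose and 9 fell at 1 h (81.8%, where 34.9% of all tested genes fell), and 7 rose and 4 fell at 12 h (63.6% and 36.4%, where 41.1% and 40.6% of all tested genes did). Between 12 h and 1 h 10 were higher (90.9%, where 41.9% of all tested genes were) and Pfkm, the muscle type phosphofructokinase, was lower. Hk3, a hexokinase of blood cells, had 36.2 ± 1.52 FPKM in untreated cells, 28.6 ± 0.668 at 1 h and 65.2 ± 2.999 at 12 h (SD, n = 3 each), a difference of 0.83 at 12 h, and Pfkm differed by −1.25. Ldha, the lactate dehydrogenase subunit, differed by 0.07 at 12 h and was lower by 0.17 at 1 h.

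Of 17 metal carriers 12 rose at 12 h (70.6%, where 41.1% of all tested genes rose) and 4 fell (23.5%, where 40.6% fell), with a median of 0.30. At 1 h 8 rose (47.1%, where 24.1% of all tested genes rose) and 5 fell (29.4%, where 34.9% fell). Slc11a2, the proton-coupled iron carrier DMT1 of endosomes and the cell surface, had 4.9, 4.36 and 3.75 FPKM in the untreated libraries, 8.18, 7.59 and 7.61 FPKM at 1 h and 15.1, 14.4 and 15.4 FPKM at 12 h. Each group lay clear of the one before, at 0.73 ± 0.07 (adjusted p = 4.23e-07) and 1.59 ± 0.07 (adjusted p = 2.08e-11). Its relative Slc11a1, NRAMP1, which moves iron and manganese out of the phagosome, was far more abundant. It had 62, 58.9 and 59 FPKM in the untreated libraries, 51.3, 54.3 and 53 FPKM at 1 h and 92.6, 90.7 and 91.6 FPKM at 12 h. It was lowest at 1 h and highest at 12 h, at −0.18 ± 0.03 (adjusted p = 2.31e-04) and 0.60 ± 0.03 (adjusted p = 2.48e-10). Slc48a1, the heme carrier HRG1 of phagolysosomes, had 19.9, 18.5 and 18 FPKM in the untreated libraries, 10.6, 11.8 and 11.9 FPKM at 1 h and 11.9, 11.6 and 13.3 FPKM at 12 h. It lay below all untreated libraries at both times (−0.67 ± 0.06 and −0.58 ± 0.06, adjusted p = 2.17e-07 and 3.01e-07). Its 12 h and 1 h groups overlapped (0.09 ± 0.06, 95% interval −0.03 to 0.22).

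Both copper carriers rose at both times. Slc31a2, the intracellular CTR2, had 6.05, 5.96 and 5.24 FPKM in the untreated libraries, 9.48, 8.13 and 8.41 FPKM at 1 h and 14.7, 14.3 and 14.8 FPKM at 12 h. It rose by 0.52 ± 0.06 at 1 h and 1.21 ± 0.06 at 12 h (adjusted p = 3.81e-06 and 1.09e-10). Slc31a1, the copper importer CTR1, had 17.6, 18.3 and 17.1 FPKM in the untreated libraries, 21.3, 22.3 and 21.9 FPKM at 1 h and 29.3, 26.5 and 29.1 FPKM at 12 h. Its difference was 0.65 ± 0.04 at 12 h (adjusted p = 3.48e-09). Groups of neither gene overlapped between 12 h and untreated cells.

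Zinc carriers were counted by family. Of 7 Slc39 (ZIP) members, which bring zinc into the cytosol, 5 rose and 2 fell at 12 h, and of 4 Slc30 (ZnT) members, which take zinc out of it, 2 rose and 1 fell, against the 41.1% and 40.6% of all tested genes given above. Their summed FPKM was 167 ± 1.95, 179 ± 1.06 and 211 ± 2.88 for Slc39 and 74.2 ± 0.733, 74.7 ± 1.14 and 72.0 ± 0.744 for Slc30 in untreated, 1 h and 12 h cells (SD, n = 3 each). Slc39a14, ZIP14, a zinc and iron carrier, had 7.8, 7.58 and 8.18 FPKM in the untreated libraries, 8.69, 8.48 and 8.79 FPKM at 1 h and 13.4, 12.8 and 12.8 FPKM at 12 h. The 12 h libraries lay above all others, and it rose by 0.66 ± 0.04 at 12 h (adjusted p = 2.11e-09). Slc39a7, ZIP7 of the endoplasmic reticulum, differed by 0.52 ± 0.03 and Slc39a1, ZIP1, by 0.43 ± 0.04 (0.28 after quantile normalization). Gene annotation has 84.5% of the Slc39a7 exon bases shared with a transcript on the same strand, Gm20427. Slc39a10 and Slc39a3 fell, by 0.32 ± 0.03 and 0.51 ± 0.06. Slc30a1, ZnT1, the exporter of the cell surface, was lower at 1 h (−0.33 ± 0.06, adjusted p = 1.68e-04), and at 12 h its difference from untreated cells was −0.06 ± 0.06 (95% interval −0.19 to 0.06). Slc30a5, a ZnT of the Golgi apparatus, fell by 0.29 ± 0.03 at 12 h. Of 25 genes for iron, zinc and copper proteins 10 were tested, of which 5 rose and 2 fell at 1 h, when 24.1% of all tested genes rose and 34.9% fell. At 12 h 5 of the 10 rose and 4 fell, when 41.1% of all tested genes rose and 40.6% fell. At 12 h Fth1, the ferritin heavy chain, differed by 1.23 and Tfrc, the transferrin receptor, by 0.52. The metallothioneins Mt1 and Mt2 differed by −0.35 and −0.79.

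The 3 nucleoside and nucleobase carriers took 3 courses. Slc29a3, the lysosomal nucleoside carrier ENT3, had 16.6, 16.3 and 17.9 FPKM in the untreated libraries, 12, 12.5 and 12 FPKM at 1 h and 7.95, 7.59 and 8.35 FPKM at 12 h. It fell at each time with no overlap between any groups (−0.44 ± 0.05 and −0.999 ± 0.05, adjusted p = 1.87e-06 and 7.01e-11). Slc29a1, ENT1 of the cell surface, had 39.3, 39.5 and 38.7 FPKM in the untreated libraries, 39.1, 40.4 and 40.6 FPKM at 1 h and 32.3, 32.3 and 30.6 FPKM at 12 h. It did not pass at 1 h (0.03 ± 0.03, 95% interval −0.04 to 0.10) and fell by 0.30 ± 0.03 at 12 h (adjusted p = 9.36e-07). Slc43a3, a carrier of purine nucleobases, had 14.8, 15.4 and 13.6 FPKM in the untreated libraries, 17.6, 16.4 and 17.1 FPKM at 1 h and 27.9, 28.8 and 27.2 FPKM at 12 h. It rose by 0.21 ± 0.05 and 0.90 ± 0.05 (adjusted p = 0.00124 and 2.15e-10). Their summed level moved little, 70.7 ± 0.458 FPKM in untreated cells, 69.3 ± 0.485 at 1 h and 67.7 ± 1.36 at 12 h. The fourth nucleoside carrier listed, Slc28a2, was below the level filter.

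**Figure D3:**
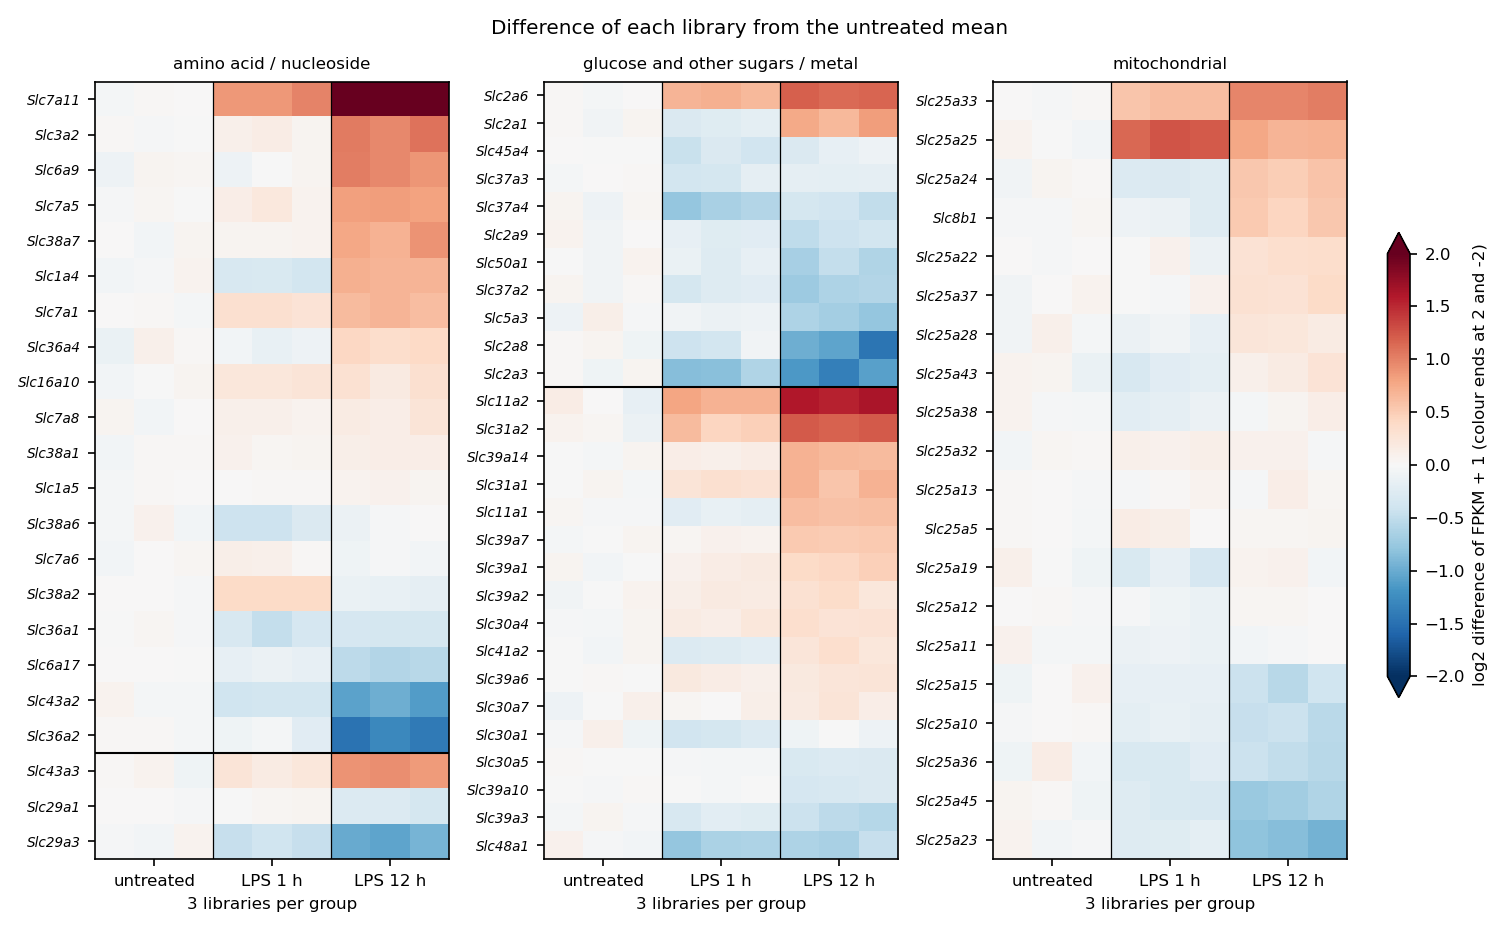
Log2(FPKM + 1) of each of the 9 libraries minus the mean of the untreated libraries, for the 70 amino acid, nucleoside, sugar, metal and mitochondrial members, sorted within each class by the 12 h difference. Colours end at 2 and −2. Slc7a11 is past the end of the scale in all 12 h libraries, and Slc36a2, at the foot of the amino acid rows, differs by −1.39 at 12 h.

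Of 20 mitochondrial carriers 11 fell at 1 h (55%) and 3 rose (15%), with a median of −0.14, and of all tested genes 34.9% fell and 24.1% rose. At 12 h 8 rose, a share of 40% that is near the 41.1% of all tested genes, and 5 fell (25%, where 40.6% of all tested genes fell), with a median of 0.05. Between 12 h and 1 h 11 were higher and 6 lower (55% and 30%, where 41.9% and 43.6% of all tested genes were). Most of the summed level of the class came from Slc25a5, the adenine nucleotide carrier ANT2, which had 827, 819.5 and 792 FPKM in the untreated libraries, 899, 882 and 815 FPKM at 1 h and 832, 831 and 846 FPKM at 12 h. It was the most abundant of all 114 members. Its 12 h difference was 0.04 ± 0.03 (95% interval −0.03 to 0.11), and its reads can be split with close paralogs. Summed without Slc25a5, the other 19 reached 270.5 ± 2.83 FPKM in untreated cells, 270.4 ± 2.52 at 1 h and 298.7 ± 1.401 at 12 h.

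The 3 calcium-regulated ATP-Mg/phosphate carriers of the class differed from each other. Slc25a25 (SCaMC-2) had 6.75, 6.39 and 6.13 FPKM in the untreated libraries, 15.5, 16.7 and 16.4 FPKM at 1 h and 11.7, 10.9 and 11 FPKM at 12 h. It was highest at 1 h without overlap (1.21 ± 0.05 at 1 h and 0.72 ± 0.05 at 12 h, adjusted p = 1.88e-11 and 2.77e-09). Of its exon bases 9.199% overlap Naif1 on the other strand. Slc25a24 (SCaMC-1) had 18, 19.8 and 19.3 FPKM in the untreated libraries, 15.5, 15.3 and 15.7 FPKM at 1 h and 28, 27.1 and 28.6 FPKM at 12 h. It was lowest at 1 h and highest at 12 h (−0.28 ± 0.04 and 0.53 ± 0.04, adjusted p = 4.35e-05 and 1.57e-08). Slc25a23 (SCaMC-3) had 16.5, 15.2 and 15.6 FPKM in the untreated libraries, 13.1, 13.2 and 13.6 FPKM at 1 h and 8.54, 8.32 and 7.7 FPKM at 12 h. It lay below the untreated libraries at both times (−0.23 ± 0.05 and −0.87 ± 0.05, adjusted p = 6.65e-04 and 2.81e-10). The pyrimidine nucleotide carriers also differed in direction. Slc25a33 (PNC1) had 22, 21.4 and 22.1 FPKM in the untreated libraries, 32.6, 33.9 and 34.1 FPKM at 1 h and 44.1, 43.8 and 45.2 FPKM at 12 h. It rose at both times (0.60 ± 0.03 and 0.99 ± 0.03, adjusted p = 1.20e-09 and 1.56e-12), and 14.9% of its exon bases overlap an antisense gene. Slc25a36 (PNC2) fell by 0.49 ± 0.06 at 12 h. Both mitoferrins, which bring iron into mitochondria, rose at 12 h: Slc25a37 by 0.32 ± 0.05 and Slc25a28 by 0.21 ± 0.05 (adjusted p = 1.83e-05 and 0.00123). Slc8b1, the mitochondrial sodium-calcium exchanger NCLX, differed by 0.50 ± 0.05 at 12 h. Slc25a10, the dicarboxylate carrier, fell by 0.47 ± 0.04, Slc25a15, the ornithine carrier, by 0.46 ± 0.06 and Slc25a45 by 0.68 ± 0.05. The aspartate-glutamate carriers Slc25a12 and Slc25a13 did not pass at 12 h (0.03 ± 0.04 and 0.05 ± 0.04, 95% intervals −0.06 to 0.11 and −0.04 to 0.14).

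The second largest 12 h rise of any member was outside the 5 classes, in Slc15a3, a histidine and peptide carrier of endolysosomes. It had 24.7, 26.3 and 25.4 FPKM in the untreated libraries, 49.3, 53.9 and 50.9 FPKM at 1 h and 188, 180.2 and 203 FPKM at 12 h. No libraries of its groups overlapped, at 0.98 ± 0.04 at 1 h (adjusted p = 1.30e-10), 2.85 ± 0.04 at 12 h (adjusted p = 8.22e-16) and 1.87 ± 0.04 between 12 h and 1 h. Slc20a1, the sodium-coupled phosphate carrier PiT1, showed the largest 1 h rise of any member. It had 24.7, 25.5 and 26.9 FPKM in the untreated libraries, 83.2, 82.5 and 76.6 FPKM at 1 h and 43, 43.8 and 43.3 FPKM at 12 h. It was 1.61 ± 0.04 at 1 h and 0.73 ± 0.04 at 12 h (adjusted p = 8.06e-14 and 2.87e-10), and 12 h lay 0.88 ± 0.04 below 1 h. Annotation has 9.12% of its exon bases shared with a gene on the other strand.

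The 14 members for inorganic ions and pH had 6 higher and 5 lower at 12 h, shares of 42.9% and 35.7% that are near the 41.1% and 40.6% of all tested genes. Slc4a7, the sodium-bicarbonate carrier NBCn1, had 7.9, 7.57 and 8.11 FPKM in the untreated libraries, 11.7, 11.4 and 12 FPKM at 1 h and 15.4, 14.7 and 14.3 FPKM at 12 h. It rose at each time (0.52 ± 0.04 and 0.83 ± 0.04, adjusted p = 1.57e-07 and 2.27e-10). Slc12a4, the potassium-chloride carrier KCC1, did not pass at 1 h (0.01 ± 0.06, 95% interval −0.11 to 0.13) and rose by 0.98 ± 0.06 at 12 h. Between 12 h and 1 h Slc12a4 differed by 0.97 ± 0.06 (adjusted p = 8.30e-10). Slc26a11, a sulfate and anion carrier, had 4.68, 4.92 and 4.94 FPKM in the untreated libraries, 2.16, 2.45 and 2.24 FPKM at 1 h and 1.0001, 0.898 and 0.681 FPKM at 12 h. On the log2(FPKM + 1) scale this was the largest fall of any member at 12 h (−1.66 ± 0.07, adjusted p = 1.68e-11) after −0.83 ± 0.07 at 1 h. The sodium-proton exchangers Slc9a5 and Slc9a7 fell at 12 h, by 0.71 ± 0.07 and 1.07 ± 0.06, and with a pseudocount of 0.1 they came to −1.14 and −1.99. Slc13a3, a sodium-coupled dicarboxylate carrier, differed by −1.06 ± 0.06 (−1.98 with that pseudocount).

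Among the remaining classes lay carriers of lysosomes, monocarboxylates, osmolytes and lipids. Slc17a5, sialin, which exports sialic acid from lysosomes, had 11.2, 9.9997 and 10.4 FPKM in the untreated libraries, 8.18, 9.41 and 8.35 FPKM at 1 h and 3.64, 2.51 and 2.83 FPKM at 12 h. It lay well below the untreated libraries at 12 h (−1.54 ± 0.08, adjusted p = 4.58e-10). Among 10 members whose Gene Ontology terms name the lysosome, 3 rose and 7 fell at 1 h, where 24.1% of all tested genes rose and 34.9% fell. At 12 h 4 of these 10 rose and 6 fell, where 41.1% and 40.6% of all tested genes did. Of the Slc16 monocarboxylate family all 4 members rose at 12 h, when 41.1% of all tested genes did, though 1 of them, Slc16a1, turned to −0.00832 after quantile normalization. Slc16a3, the lactate exporter MCT4, had 76.7, 72.2 and 74.3 FPKM in the untreated libraries, 70.6, 72.2 and 72.8 FPKM at 1 h and 102, 97.6 and 104 FPKM at 12 h. It differed by 0.44 ± 0.03 (adjusted p = 1.16e-08), or 0.27 after quantile normalization. Slc16a1, MCT1, differed by 0.14 ± 0.04 (adjusted p = 0.00369). Slc6a12, the betaine and GABA carrier, and Slc6a8, the creatine carrier, rose by 0.61 ± 0.04 and 0.46 ± 0.04 at 12 h. Slc27a1, a fatty acid carrier, had 48.1, 48.8 and 48.4 FPKM in the untreated libraries, 42.7, 42.9 and 42.6 FPKM at 1 h and 61.4, 64.9 and 65 FPKM at 12 h. It was lowest at 1 h (−0.18 ± 0.03) and highest at 12 h (0.39 ± 0.03, or 0.25 after quantile normalization). Slc44a1, a choline carrier, fell by 0.67 ± 0.05 at 12 h and Slc22a5, the carnitine carrier, by 0.50 ± 0.08. Slc46a3, a lysosomal carrier, fell by 0.86 ± 0.10, or by 1.38 with a pseudocount of 0.1. Slc52a2, a riboflavin carrier, did not pass at 12 h (0.10 ± 0.05, 95% interval −0.01 to 0.20). Of 11 Slc35 carriers, most of them for nucleotide sugars, 4 rose and 4 fell at 12 h (36.4% each way, near the shares of all tested genes), with Slc35b1 of the endoplasmic reticulum at 0.63 ± 0.05 and Slc35b2, for the sulfate donor PAPS, at −0.66 ± 0.04.

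**Figure D4:**
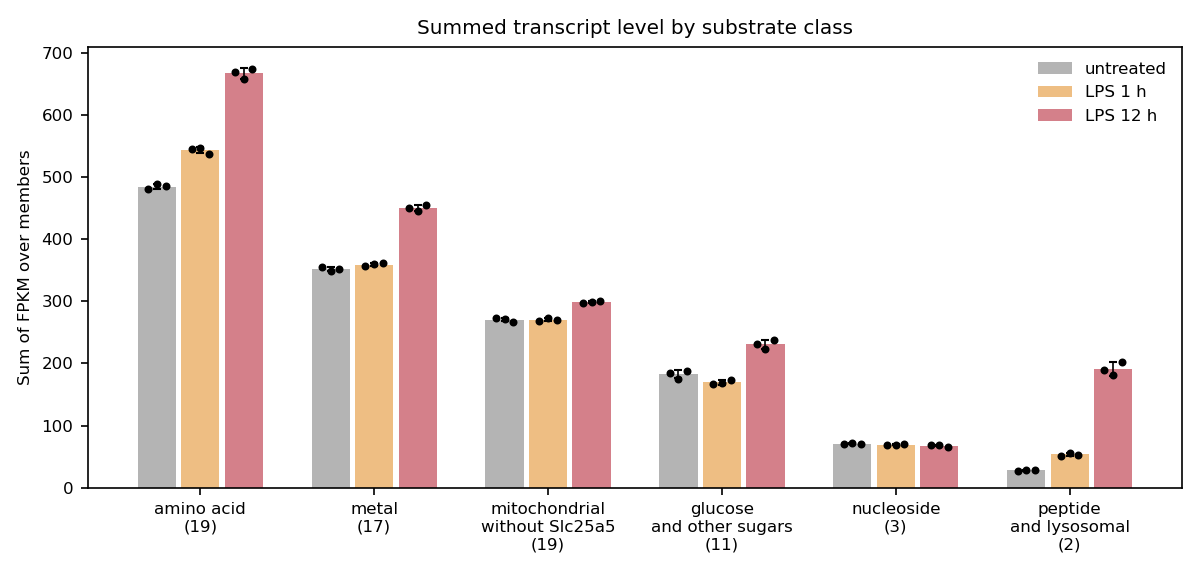
Sum of FPKM over the members of 6 classes in each library (points), with the mean (bar) and SD over 3 libraries, in untreated, LPS 1 h and LPS 12 h cells; brackets give the member number. Amino acid carriers sum to 667 ± 8.73 FPKM at 12 h, against 485 ± 4.32 in untreated cells, and the nucleoside carriers to 67.7 ± 1.36, against 70.7 ± 0.458.

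Summed over all 114 members the level was 2961 ± 20.1 FPKM in untreated cells, 3122 ± 44.8 at 1 h and 3610 ± 45.04 at 12 h, and without Slc25a5 it was 2148 ± 3.22, 2257 ± 17.1 and 2773 ± 38.0 (SD, n = 3 each). These sums are not tests, and they rise with the sums of the listed FPKM of each group given above. In bulk RNA fewer cells of a kind and less RNA per cell cannot be told apart. Just inside the level of 1 FPKM stood Slc36a2, with the values above, Slc13a3, with 1.99 ± 0.194 FPKM in untreated cells, 1.56 ± 0.0932 at 1 h and 0.429 ± 0.0256 at 12 h (SD, n = 3 each), and Slc9a7, with 2.01 ± 0.0333 FPKM in untreated cells, 2.03 ± 0.105 at 1 h and 0.439 ± 0.109 at 12 h (SD, n = 3 each). Just outside it stood Slc39a4, with 0.262 FPKM in untreated cells, 0.236 at 1 h and 2.11 at 12 h, Slc22a4 with 0.306, 0.156 and 1.79, and Slc12a5 with 0.986, 0.677 and 0.550. The zinc carrier Slc39a4 and the organic cation carrier Slc22a4 were thus highest at 12 h and were left out by the mean over 9 libraries.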

How the data were processed

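RNA of 9 BV2 libraries (3 untreated, 3 after 1 h and 3 after 12 h of LPS) was read from 1 deposited table. Per the labels' protocols, total RNA was taken up with TRIzol and made into libraries with a stranded TruSeq kit. The submitters' processing notes list tools without versions, which are HISAT2, HTSeq, Cufflinks, DESeq and Trimmomatic, and GRCh38, a human build, although the symbols are those of mouse genes, so no position of a gene was taken from them. The authors deposited FPKM per gene, and whether counting used strand is not given in the sources used here. Per the file headers, further columns give a q-value and p-value per gene by an unstated test, a score for rank and a flag. As deposited, every flag is 1 and no q-value exceeds 0.0999, so the genes had been selected on these libraries and adjusted p-values give no error rate over the transcriptome. No read counts were used, the exact depth is unknown, and no interval covers more than the spread between libraries.

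From these values limma 3.58.1 (R 4.3.3) fitted log2(FPKM + 1) with 1 mean per group and 3 contrasts, moderating the spread by a trend on level. Genes with a mean of at least 1 FPKM were tested (5643, leaving out 819), two-sided, and p-values were adjusted by Benjamini-Hochberg over them. The fit was also run on simulated data with changes put in at 12 h only, and no result here rests on that run. Alternatives were pseudocounts of 0.1 and 0.5, no filter, a filter of 5 FPKM, scaling by median of ratios, quantile normalization, no trend, a fit to the 6 libraries of each contrast, a block for the library number, adjustment over the 21878 genes the deposited ranks imply, and leaving out each library. Library numbers did not pair the samples (correlation of deviations −0.07 to 0.13). Within a group libraries correlated at 0.998 to 0.999 over genes, and between groups at 0.924 to 0.970.

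Members, classes and lists were chosen with earlier results of these data known. Named were Slc7a11, Slc2a1 and Slc2a3, up to 8 members a class in order of the larger difference from untreated cells, the 10 most abundant members and those beside the level of 1 FPKM; other members were named after their values were seen, to complete families. Exon overlaps come from GENCODE vM21, in which exons of 30 of the 114 members meet those of another gene, and such members are uncertain. Overlaps are named for only some of them. Slc25a10 and Slc29a1 also share 11.3% and 10.35% of their exon bases with a gene on the other strand.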

Additional observations from a re-analysis of the deposited data

Results flagged for a closer look

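Among the members 17 passed in opposite directions at 1 h and at 12 h against the same untreated libraries, and also passed between 12 h and 1 h, which is the test of the difference between both. That is 14.9% of the 114 members, and 12.8% of all 5643 tested genes met the same rule, so the share is near the background. For 9 of the 17 (52.9%) all 3 calls held whichever single library was left out, as they did for 59.0% of the 725 tested genes with such calls. Slc38a2 was the one that rose at 1 h and fell at 12 h, and its log2 difference between 12 h and 1 h was −0.53. The other 8 fell at 1 h and rose at 12 h, with 12 h minus 1 h differences of 1.01 for Slc1a4, 0.99 for Slc2a1, 0.81 for Slc25a24, 0.78 for Slc11a1, 0.57 for Slc27a1, 0.51 for the magnesium carrier Slc41a2, 0.39 for the scaffold gene Slc9a3r1 and 0.38 for Slc35e4. After quantile normalization the 12 h rise of Slc9a3r1 over untreated cells came to 0.10 and was not called. The 8 further members with opposite calls lost at least 1 of them without some library.

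A pair of carriers below the level filter, and so outside every count, was present mainly at 12 h. Slc39a4, the zinc importer ZIP4, had 2.11 ± 0.149 FPKM at 12 h, against 0.262 ± 0.105 in untreated cells, and Slc22a4, an organic cation carrier, had 1.79 ± 0.264 FPKM at 12 h, against 0.306 ± 0.0988 in untreated cells (SD, n = 3 each). No test was run on them.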

How the results depend on the processing

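Each of 342 member differences in 3 contrasts was refitted under up to 19 alternatives. Of 6426 refits 6190 kept the side of the threshold and, where called, the direction. Another 190 lost a call and 42 gained one with the sign kept, and 4 reversed, which means a changed sign with a call before or after. All 4 reversals were at 12 h against untreated cells under quantile normalization: Slc1a5 came to −0.0804, Slc24a5 to −0.00772, Slc16a1 to −0.00832 and Slc35d1 to 0.12, against 0.07, 0.17, 0.14 and −0.03 before, and the cause was not tested. Of these, Slc24a5 and Slc16a1 no longer passed (adjusted p = 0.846 and 0.842), Slc35d1 passed only afterwards, and Slc1a5 passed in both directions. For Slc24a5, 36.5% of the exon bases overlap Myef2 on the other strand. Calls made in every alternative numbered 17 of 26 rises and 32 of 49 falls at 1 h, and 47 of 58 rises and 35 of 39 falls at 12 h. The same count was not made over all tested genes, so these numbers do not compare members with other genes. A filter of 5 FPKM tests fewer members, covering 270 of the 342 differences, and all 270 kept their side of the threshold. With it 24 fell at 12 h against untreated cells and 23 at 12 h against 1 h. Falling sugar carriers then numbered 5, 4 and 3 at 1 h, at 12 h and between 12 h and 1 h, and falling metal carriers 3 at 1 h. Shares over all genes at that filter are not given, so these counts have no background beside them. Without 1 library, 62 to 76 members passed at 1 h, 94 to 97 at 12 h and 94 to 101 between 12 h and 1 h. Shares of all tested genes that passed in those fits are not given either. Library numbers did not pair the samples. The replicate block ended the calls of Slc16a1 at 1 h (adjusted p = 0.0532) and Slc35f6 between 12 h and 1 h. It also gained a call, the fall of Slc25a28 at 1 h (adjusted p = 0.0379). FPKM below 1 are limited by depth, which is unknown, and genes that the table leaves out were not analysed here.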

Other observations

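Carriers that belong to SLC families but bear other symbols, from a list of 42 of which 11 were listed and tested, rose in 4 cases and fell in 6 at 12 h against untreated cells (36.4% and 54.5%, where 41.1% and 40.6% of all tested genes did). Ctns, the cystine exporter of lysosomes, had 4.66 FPKM at 12 h, against 9.71 in untreated cells, a log2 difference of −0.92. Xpr1, the phosphate exporter, had 8.41 FPKM at 12 h, against 14.6 in untreated cells, a difference of −0.73. Ucp2, a mitochondrial uncoupling protein, and Mpc2, a subunit of the mitochondrial pyruvate carrier, fell by 0.36 and 0.46. Slco4a1, an organic anion carrier, rose by 0.41.

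Of 14 partner and regulator genes of carriers 8 were tested, of which 3 rose and 3 fell at 12 h. That is 37.5% each way, near the 41.1% and 40.6% of all tested genes. Txnip, an arrestin that removes GLUT1 from the cell surface, fell by 1.06 at 1 h and by 0.27 at 12 h against untreated cells, and was 0.79 higher at 12 h than at 1 h. Its relative Arrdc4 had 7.94 FPKM at 12 h, against 2.82 in untreated cells, and rose by 1.22. Bsg, the chaperone chain of MCT1 and MCT4, was lower by 0.18 at 1 h, and its 12 h difference of 0.03 did not pass.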
